A study of Mus musculus with 11 samples.

Results

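The red cell membrane skeleton genes studied here are 9 genes chosen by name: Sptb, Ank1, Epb41, Epb42, Add1, Add2, Slc4a1, Tmod1 and Dmtn. Each gene was read from its probe set with exactly 1 gene symbol, and where a gene had more than 1 such probe set, from the one with the highest mean log2 intensity over all arrays. This gave values for 8 of the 9 genes, among 19933 genes in all. Epb41, the gene of protein 4.1, is not analysed here. RNA of sorted C57Bl/6 mouse cells was measured on 11 Affymetrix arrays, with 1 array per genotype and cell type. Bone marrow cells lacking lineage markers, CD41 and CD16/32 and carrying CD117 were sorted into 3 stages. Pre MegE cells had CD150 and no CD105, Pre CFU-E cells had CD150 and low CD105, and CFU-E cells had CD105 and no CD150. CD4+ dendritic cells (DC) came from the spleen and were B220-, CD11c+, MHCII+, CD8-, CD172+ and CD11b+. The mice were WT (Zbtb46+/+), Het (Zbtb46 gfp/+) or KO (Zbtb46gfp/gfp), all at steady state. The progenitors were measured in all 3 genotypes, the DC in WT and KO. The labels give no age, and they do not tie the 3 stages to individual animals, so p-values measure the spread between these arrays. The number of arrays limits the precision.

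The membrane skeleton is a protein mesh under the red cell membrane. Tetramers of spectrin form its strands, short actin filaments capped by tropomodulin and adducin form its nodes, and protein 4.1 and dematin join spectrin to actin there. The mesh is held to the lipid bilayer through ankyrin and protein 4.2, which bind the anion exchanger band 3, and through protein 4.1 and glycophorin C. Inherited loss of spectrin, ankyrin, band 3 or protein 4.2 is known to cause fragile, spherical red cells.

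From Pre MegE to CFU-E, 6 of the 8 measured genes rose, where 41.5% of all tested genes did, and none fell, where 35.1% did. Sptb rose 6.90-fold, Add2 5.83-fold, Epb42 4.64-fold, Ank1 3.91-fold, Dmtn 2.26-fold and Slc4a1 1.61-fold. They did not rise at the same step. On the log2 scale, Ank1 and Add2 made most of their rise before Pre CFU-E. For Add2 the tested difference between steps was lost without the WT or without the Het Pre CFU-E array. Sptb made most of its log2 rise after Pre CFU-E, Dmtn and Epb42 nearly all of it after, and Slc4a1 fell first and then rose. Add1 and Tmod1 did not pass the test in either direction.

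Promoter sequences are shown for a gene of the early rise (Add2), for genes of the later rise (Sptb and Epb42) and for the adducin gene without a called change (Add1). Each is the 250 bases before the gene's start in RefSeq on build GRCm38.p6, 5′ to 3′ on the gene's strand, and capitals mark motif matches. Searched on both strands were AGATAA and TGATAA, the form bound by GATA factors, and CCNCNCCC, a CACCC-type form bound by Klf1 and its relatives, where matches may overlap each other.
Add2: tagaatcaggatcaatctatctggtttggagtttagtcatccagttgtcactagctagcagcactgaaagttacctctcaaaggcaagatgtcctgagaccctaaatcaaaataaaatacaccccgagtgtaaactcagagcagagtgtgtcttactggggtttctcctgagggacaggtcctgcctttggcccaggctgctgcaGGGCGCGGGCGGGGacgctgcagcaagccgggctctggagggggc
Sptb: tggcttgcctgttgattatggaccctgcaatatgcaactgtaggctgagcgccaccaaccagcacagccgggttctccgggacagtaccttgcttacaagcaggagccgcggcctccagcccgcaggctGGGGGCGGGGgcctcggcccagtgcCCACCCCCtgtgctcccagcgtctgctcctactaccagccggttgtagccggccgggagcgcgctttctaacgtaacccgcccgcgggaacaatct
Epb42: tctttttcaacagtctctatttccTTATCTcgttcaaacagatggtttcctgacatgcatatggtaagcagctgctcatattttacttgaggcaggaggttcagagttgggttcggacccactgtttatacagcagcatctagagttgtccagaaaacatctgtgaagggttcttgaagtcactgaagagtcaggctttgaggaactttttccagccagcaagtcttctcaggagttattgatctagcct
Add1: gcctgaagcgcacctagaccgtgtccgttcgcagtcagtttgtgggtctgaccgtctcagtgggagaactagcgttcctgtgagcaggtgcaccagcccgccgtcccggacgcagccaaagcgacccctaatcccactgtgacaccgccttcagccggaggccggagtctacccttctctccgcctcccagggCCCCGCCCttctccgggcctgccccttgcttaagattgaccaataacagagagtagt
The Add2 window lies at chr6:86028431-86028680 (+ strand) and held 2 matches to CCNCNCCC, 45 and 39 bases upstream of the start. The Sptb window lies at chr12:76710548-76710797 (- strand) and held 3, at 121, 119 and 96 bases upstream. The Add1 window, at chr5:34573414-34573663 (+ strand), held 1, at 57 bases upstream. The Epb42 window, at chr2:121036878-121037127 (- strand), held no CCNCNCCC and 1 AGATAA on the opposite strand, 226 bases upstream. Of 32851 RefSeq windows of this length, 45.9% held CCNCNCCC, 9.99% AGATAA and 7.94% TGATAA. GC content was 65.2% for Sptb, 62.4% for Add1, 53.2% for Add2 and 43.2% for Epb42, against a median of 52.4% over all windows. These matches describe the letters of the windows and are no evidence of binding. In all, 6 of the 9 genes have a window in the table used here, the others being Epb41 and Tmod1.

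Marker genes were read before the results. The 7 measured erythroid markers of 9 listed had mean log2 intensities of 10.85 to 10.89 over the 3 Pre MegE arrays, up to 11.55 at Pre CFU-E, and 11.83 to 11.88 in CFU-E cells, against 7.49 to 7.77 in DC. Most marker lists of other lineages were lower at CFU-E than at Pre MegE. The B cell list (3 of 4 measured) lay between 9.07 and 9.15 at Pre MegE and between 8.21 and 8.23 at CFU-E. The dendritic and macrophage lists were lower as well, and the T cell list overlapped between the stages. The megakaryocyte list (5 of 8 measured) lay between 9.20 and 9.43 at Pre MegE and between 7.69 and 7.71 at CFU-E. The stem cell list (6 of 6) lay between 9.56 and 9.75 and then between 7.11 and 7.23. The granulocyte and monocyte list (8 of 8) lay between 10.59 and 10.80 and then between 9.67 and 9.96, and its gene Mpo was still at 11.13 to 11.52 in CFU-E cells. What part these cell types have in the differences between stages was not tested. In sorted bulk samples, fewer cells that express a gene and less of its RNA per cell cannot be told apart. The DC arrays had 12.40 to 12.63 for the dendritic list (8 of 8). For Zbtb46, the targeted gene, KO minus WT was -1.65 log2 in DC, -1.37 in CFU-E cells, -0.44 at Pre CFU-E and 0.19 at Pre MegE, where all genotypes lay below the array median.

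Ankyrin-1, the product of Ank1, links spectrin to band 3. In WT, Het and KO its log2 intensity was 10.38, 10.19 and 10.31 in Pre MegE cells. Pre CFU-E cells had 11.63, 11.79 and 11.64, and CFU-E cells 12.15, 12.22 and 12.41. No array of a stage overlapped with those of the next, and the first step was the larger one in every genotype. Ank1 rose by 1.39 log2 in the first step (SE 0.0812, 2.62-fold, limma adjusted p = 7.37e-07, n = 3 arrays per stage) and by 0.58 in the second (SE 0.0812, 1.49-fold, adjusted p = 0.000399). The second step was smaller than the first by a tested difference of -0.81 (SE 0.141, adjusted p = 0.00212).

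Add2 encodes beta adducin, which with alpha adducin caps actin filaments and recruits spectrin to them. WT, Het and KO Pre MegE cells had 8.80, 8.60 and 8.87, Pre CFU-E cells 10.20, 10.33 and 10.26 and CFU-E cells 11.19, 11.33 and 11.38. The stages were again fully apart. Add2 rose by 1.51 in the first step (SE 0.0739, 2.84-fold, limma adjusted p = 2.58e-07), the largest first-step rise of the 8 genes, and by 1.04 in the second (SE 0.0739, 2.05-fold, adjusted p = 5.02e-06). The difference between its steps, -0.47, passed the test (SE 0.128, adjusted p = 0.0180) but was lost without the Het Pre CFU-E array (-0.34, adjusted p = 0.0954) and also without the WT Pre CFU-E array.

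Sptb encodes beta spectrin of the red cell, the chain that carries the ankyrin binding site. It had 8.68, 8.37 and 8.74 in WT, Het and KO Pre MegE cells, 9.42, 9.63 and 9.54 in Pre CFU-E cells, and 11.29, 11.38 and 11.49 in CFU-E cells. Pre MegE and Pre CFU-E arrays were closer to each other than either was to CFU-E. Sptb rose by 0.93 in the first step (SE 0.0903, 1.90-fold, limma adjusted p = 1.70e-05) and by 1.86 in the second (SE 0.0903, 3.63-fold, adjusted p = 4.80e-07). Over both steps its measured rise was 2.79. The measured rise of no other of the 8 genes was larger, though that of Epb42 starts below the array median and is uncertain in size. The second step exceeded the first by 0.93 (SE 0.156, adjusted p = 0.00183).

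Epb42 encodes protein 4.2, a relative of transglutaminases without enzyme activity that joins band 3 to ankyrin. WT, Het and KO had 7.21, 7.01 and 7.22 at Pre MegE and 7.23, 7.49 and 7.27 at Pre CFU-E, all below the median of their arrays (7.66 to 7.77). At CFU-E they had 9.36, 9.31 and 9.42, well above it. The first-step difference of 0.18 did not pass the test (SE 0.0845, limma adjusted p = 0.0881). It passed with each array centred on its median (0.26, adjusted p = 0.0199) and with quantile normalization. Epb42 rose by 2.03 in the second step (SE 0.0845, 4.10-fold, adjusted p = 1.98e-07), the largest second-step rise of the 8, and with its start below the median the size of this fold is uncertain. The second step exceeded the first by 1.85 (SE 0.146, adjusted p = 3.78e-05).

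Dmtn encodes dematin, which bundles actin and binds spectrin at the nodes. Its values in WT, Het and KO were 7.69, 7.65 and 7.67 at Pre MegE, just under the array median, and 7.82, 7.93 and 7.81 at Pre CFU-E, just over it. CFU-E arrays had 8.84, 8.85 and 8.84, the narrowest spread of any of the 8 genes at a stage. The first-step rise was small (0.18, SE 0.0488, limma adjusted p = 0.00865) and the second was 0.99 (SE 0.0488, 1.99-fold, adjusted p = 5.10e-07). The second exceeded the first by 0.81 (adjusted p = 0.000162).

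Slc4a1 encodes band 3, the chloride and bicarbonate exchanger that anchors the mesh in the bilayer. WT, Het and KO Pre MegE cells had 8.57, 8.26 and 8.57, Pre CFU-E cells 8.16, 8.14 and 8.22 and CFU-E cells 9.05, 9.20 and 9.23. Pre CFU-E was the lowest stage in every genotype, by the least in Het. Slc4a1 fell by 0.29 in the first step (SE 0.0774, 1.23-fold, limma adjusted p = 0.00796), a call that was lost with array weights (-0.19, adjusted p = 0.0876), and rose by 0.98 in the second (SE 0.0774, 1.98-fold, adjusted p = 9.42e-06). Alas2, the first enzyme of red cell heme synthesis and one of the erythroid markers, had a like course. It had 7.86 to 7.89 in Pre MegE cells, 7.62 to 7.68 in Pre CFU-E cells, below the array medians, and 7.97 to 8.22 in CFU-E cells. The other measured erythroid markers, Rhag, Klf1, Gata1, Epor, Tfrc and Car1, did not share this course and were called higher in the first step.

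Add1 encodes alpha adducin, the partner of beta adducin that most tissues make. It had 11.33, 11.42 and 11.37 in WT, Het and KO Pre MegE cells, 11.41, 11.46 and 11.42 in Pre CFU-E cells and 11.42, 11.41 and 11.57 in CFU-E cells. The stages overlapped. Its difference from Pre MegE to CFU-E was 0.09 (SE 0.0530, limma adjusted p = 0.140). With each array centred on its median it was 0.21 and passed the test (adjusted p = 0.00419), while the median of all genes moved from 0.05 to 0.17 under that scaling.

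Tmod1 encodes tropomodulin 1, which caps the slow-growing end of actin filaments and sets their length in the red cell. It had 2 probe sets of 1 symbol, which disagreed. The one with the higher mean gave 8.28, 8.20 and 8.22 in Pre MegE cells, 8.01, 8.13 and 8.14 in Pre CFU-E cells and 8.22, 8.16 and 8.17 in CFU-E cells, with no called step (first -0.13, limma adjusted p = 0.0570, second 0.09, adjusted p = 0.244). The other, which the annotation pairs with a RefSeq transcript, gave 7.80, 7.95 and 7.89, then 6.95, 7.25 and 7.15, then 7.28, 7.34 and 7.34. By that probe set Tmod1 fell by 0.76 in the first step (adjusted p = 2.23e-06), rose by 0.20 in the second and was 0.56 lower at CFU-E than at Pre MegE (adjusted p = 8.42e-06), with its later values below the array medians. Neither probe set showed a rise from Pre MegE to CFU-E, and the fall depends on which is read. The first-step fall of the first probe set passed with array weights, with no block and without the Het Pre CFU-E array, and its second-step rise with quantile normalization and with array weights.

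**Figure D1:**
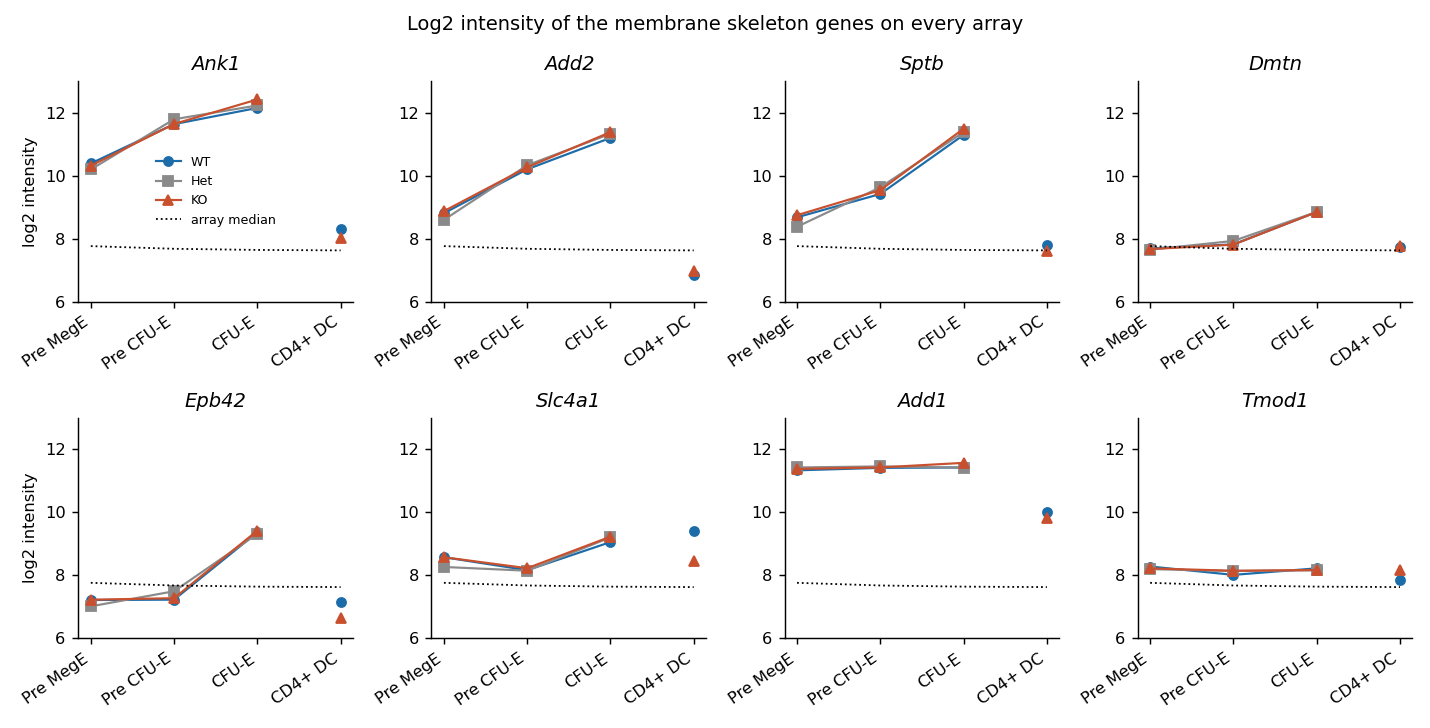
Log2 intensity of each of the 8 measured genes on every array, with stages and DC along the x axis, 1 point per array coloured by genotype, lines joining the 3 stages of a genotype, and the dotted line the mean of the array medians of a cell type. Ank1, Add2, Sptb and Dmtn climb at both steps, Dmtn only little in the first. Epb42 lies below the array median before CFU-E and above it at CFU-E. Slc4a1 dips at Pre CFU-E, and Add1 and Tmod1 have no called step in the progenitors.

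Counts over the list are set against the share of all 10701 tested genes called the same way, since changes between stages were widespread. In the first step 4 of the 8 genes rose, against 37.1% of all genes, and 1 fell, against 29.3%. In the second step 6 rose, against 18.7% of all genes, and none fell, against 25.3%. With arrays centred on their medians the first-step count was 6, since Epb42 and Add1 (0.14, adjusted p = 0.0404) passed as well. That centring moved higher calls among all genes from 55.9% to 66.7% of the calls in the first step and from 54.2% to 64.9% over both. The median of the 8 genes was 0.18 in the first step, 0.99 in the second and 1.57 over both, against 0.038, -0.0046 and 0.050 for all genes. The signed difference of second minus first step was called higher for 4 of the 8 (14.6% of all genes) and lower for 2 (24.1%). Among all genes, a gene that fell less in the second step than in the first also counts as higher here.

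The order of onset was described by the share of a gene's log2 rise that was complete at Pre CFU-E. The share was read for the 6 genes called higher over both steps with a rise of at least 0.5 log2. In the fit over genotypes this share was 70.7% for Ank1, 59.2% for Add2, 33.3% for Sptb, 15.5% for Dmtn, 8.13% for Epb42 and -42.4% for Slc4a1, where a negative share is a level below that of Pre MegE. The order was the same in 3 of 3 genotypes. Ank1 ranged from 63.0% to 78.4% over the genotypes and Add2 from 55.5% to 63.4%, so that these neighbours overlapped. Sptb, with 28.3% to 41.7%, lay apart from Add2 above it and from Dmtn below it. Dmtn (11.1% to 23.1%) and Epb42 (0.56% to 20.8%) overlapped, and Slc4a1 (-85.4% to -12.7%) lay below all others. Epb42 was below the array medians at Pre MegE and Pre CFU-E, and Dmtn just under them at Pre MegE. The size of the shares of Epb42 and Dmtn is therefore uncertain. Within a genotype the mean gap between neighbours was 11.7 percentage points for Ank1 and Add2 (SD 3.78, n = 3), 26.1 for Add2 and Sptb (SD 4.2), 17.6 for Sptb and Dmtn (SD 0.921) and 7.52 for Dmtn and Epb42 (SD 4.61). For Epb42 and Slc4a1 the mean gap was 58.4 with the largest SD (26.3), and the Slc4a1 rise in WT was only 0.48 log2. Add2 and Sptb both rose in both steps, and it was the share made in the first step that differed. The shares of 1 genotype rest on the same 3 arrays, so the 6 genes are no independent measures of that genotype.

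**Figure D2:**
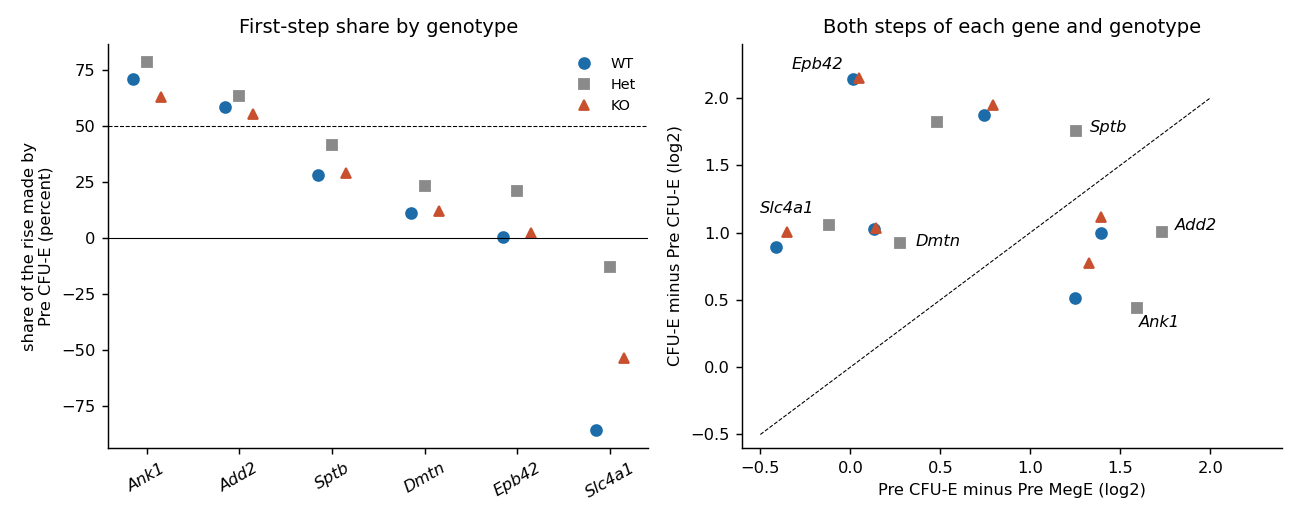
Left, the percent of each gene's Pre MegE to CFU-E log2 rise that was complete at Pre CFU-E, 1 point per genotype, with a dashed line where both steps are equal. Right, the log2 difference of the second step against that of the first, 1 point per gene and genotype, with a dashed line where both are equal: Ank1 and Add2 lie below it and Sptb, Dmtn, Epb42 and Slc4a1 above it in all 3 genotypes.

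The Het shares were the highest of the 3 genotypes for 6 of 6 genes. The Het Pre MegE array was the lowest of its stage for 7 of the 8 genes, with Add1 the exception, and the Het Pre CFU-E array the highest of its stage for 6 of the 8, with Slc4a1 and Tmod1 the exceptions. For Sptb the first step was 1.25 in Het, 0.74 in WT and 0.79 in KO. For Epb42 it was 0.48 in Het, 0.01 in WT and 0.05 in KO. Each of these Het values comes from 1 pair of arrays. All counts in this paragraph rest on the same Het arrays, and the share over all genes is not given. No trait of the listed genes is read from them.

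Paralogs that other cells use were read from a list of 25 genes. Of these, 23 were measured and 10 passed the filter on low values. From Pre MegE to CFU-E 7 of these 10 fell and 2 rose, with a median of -0.84, where 35.1% of all genes fell and 41.5% rose. In the first step 8 fell and 1 rose (29.3% and 37.1% of all genes), and in the second 6 fell and 2 rose (25.3% and 18.7%). Sptan1, the alpha spectrin of nucleated cells, fell 4.93-fold (SE 0.0495 on the log2 scale, limma adjusted p = 4.93e-10), from 10.12, 10.21 and 10.24 in WT, Het and KO to 7.84, 7.86 and 7.97. Most of that fall, 2.03, came in the first step. Sptbn1, the matching beta spectrin, fell by 2.28 (SE 0.0453, limma adjusted p = 3.69e-10), by 1.52 in the first step and 0.77 in the second. Sptb, its red cell counterpart, moved the other way over the same arrays, mostly in the second step.

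In the adducin family the 3 genes took 3 courses: Add2 rose, Add1 did not pass the test, and Add3, the gamma adducin of other tissues, fell by 1.41 (SE 0.0560, limma adjusted p = 2.04e-08). Add3 had 10.76, 10.84 and 10.90 at Pre MegE and 9.48, 9.31 and 9.49 at CFU-E in WT, Het and KO. Tmod3, the tropomodulin of most cells, fell by 0.96 (SE 0.0442, limma adjusted p = 5.27e-08). The 2 paralogs that rose were Epb41l5, a protein 4.1 relative (0.69, SE 0.0742), and the transglutaminase Tgm2 (0.63, SE 0.0560). Tgm2 fell by 0.48 in the first step and rose by 1.11 in the second, where its relative Epb42 also rose. Tgm1, which was chosen after its values were seen, fell by 1.16.

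**Figure D3:**
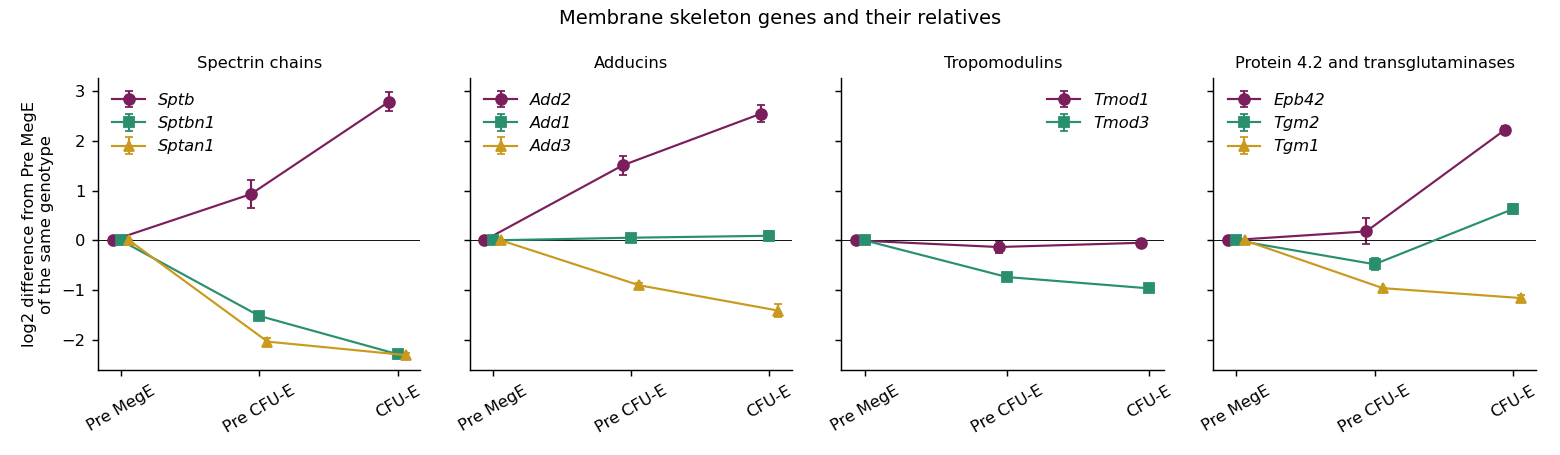
Mean log2 difference from Pre MegE of the same genotype (y axis) at each stage (x axis) for red cell genes and relatives, 4 families, with bars the SD over 3 genotypes. Sptb, Add2 and Epb42 rise, Sptbn1, Sptan1, Add3, Tmod3 and Tgm1 (chosen after its values were seen) fall, and Tgm2 falls and then rises.

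Other proteins of the nodes and anchor complexes were read from a list of 26 genes, of which 23 were measured and 21 passed the filter. From Pre MegE to CFU-E 11 rose and 7 fell, with a median of 0.33, where 41.5% of all genes rose and 35.1% fell. In the first step 10 rose and 6 fell (37.1% and 29.3% of all genes), and in the second 9 and 6 (18.7% and 25.3%). The largest rises were those of the Rh complex: Rhd rose by 4.26 (SE 0.0835, 19.2-fold, limma adjusted p = 3.57e-10) and Rhag by 2.20 (SE 0.0604, 4.61-fold, adjusted p = 1.94e-09). Both took most of it in the first step, 3.01 and 1.66. The blood group protein gene Ermap rose by 1.27, of which 1.11 came in the first step. The largest falls were those of the glucose transporter Slc2a1 (-2.07), Add3 and Tmod3. Named after their values were seen, Mpp1, the p55 protein that joins protein 4.1 to glycophorin C, rose by 1.02 (0.39 then 0.63), the tropomyosin Tpm1 by 0.44 and Gypc by 0.20. Actb, the actin gene, had a difference of -0.05 that did not pass the test (adjusted p = 0.363), and Capzb, a subunit of the actin capping protein CapZ, fell by 0.24.

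Erythroid transcription factors were read from a list of 17 genes, all measured and tested, of which 7 rose and 7 fell from Pre MegE to CFU-E, near the shares of all genes (41.5% and 35.1%). E2f4 rose by 1.23 (SE 0.0494), in both steps. Klf1, a known activator of red cell genes that binds CACCC-type sites, rose by 0.71 in the first step (SE 0.0698, limma adjusted p = 1.77e-05), and its second-step difference of 0.09 did not pass the test (adjusted p = 0.322). The rise of Klf3, a relative of Klf1, was 0.82 over both steps. Gata2, a factor of early progenitors, fell by 3.33 (SE 0.0454, 10.1-fold), by 1.64 and 1.69 in the 2 steps. Nfe2 fell by 1.26 and Myb by 0.78. In the first step 6 of the 17 rose and 6 fell (37.1% and 29.3% of all genes), and in the second 2 and 3 (18.7% and 25.3%). Gata1, named after its values were seen, rose by 0.29 in the first step, and its second-step difference of 0.06 did not pass the test (adjusted p = 0.389).

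The pattern most like that of a gene was taken as the smallest root mean square (rms) difference of log2 values over the 11 arrays, each gene centred on its mean, among 11090 genes. It was read for the 3 genes with the largest rise. Closest to Sptb were Gdpd1 (rms difference 0.246) and the lipase gene Mgll (0.262), followed by Pdia2, Rnf128 and Abcg4. Closest to Add2 were Mns1 (0.175), the heme synthesis enzyme gene Cpox (0.191) and the porphyrin transporter gene Abcb6 (0.257), then Pla2g12a and the cyclin gene Ccne1. Closest to Epb42 were Trim10 (0.186), Sec14l2 (0.189) and Btnl10 (0.189), then Ccdc74a and Slc30a10. These 11 arrays come from 4 cell types, and the difference between DC and CFU-E weighs on the measure. Between members, Ank1 and Add2 differed by an rms of 0.249 and Sptb and Epb42 by 0.515.

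The comparison of genotypes asks whether the genes differ with the Zbtb46 genotype in erythroid progenitors. In limma, 0 of the 8 genes passed the test between KO and WT, where 0.14% of all genes did, between Het and WT (0.0374%), between KO and Het (0%) or for a trend of the KO effect over the stages (0%). None of the 8 had an unadjusted p under 0.05 in any of these, the smallest being 0.191, 0.437, 0.111 and 0.191, while 614, 566, 255 and 655 of all genes did. KO minus WT differences averaged over stages ran from -0.01 for Dmtn (SE 0.0488) to 0.13 for Sptb (SE 0.0903). Sptb was higher in KO than in WT at each stage, by 0.07, 0.12 and 0.20. At CFU-E alone, KO minus WT was 0.27 for Ank1, 0.18 for Add2 and 0.17 for Slc4a1, with 1 array each and no test. For the remaining genes it was 0.15 (Add1), 0.05 (Epb42), 0.001 (Dmtn) and -0.05 (Tmod1). The spread of this difference over all genes is not given. A p that misses the threshold does not show that the genotypes are alike.

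CD4+ DC were read as cells outside the red cell lineage. Against CFU-E 6 of the 8 genes were lower, where 61% of all 11560 tested genes were. DC minus CFU-E was -4.42 log2 for Add2 in a fit with genotype as a block (SE 0.0857, 21.4-fold, limma adjusted p = 8.22e-12), with 6.83 in WT and 6.96 in KO DC, below the array medians of 7.61 and 7.64. It was -4.11 for Ank1 (SE 0.114, 17.3-fold), with 8.30 and 8.01 in WT and KO DC, and -3.69 for Sptb (SE 0.117, 12.9-fold), with 7.81 and 7.62. Epb42 differed by -2.46, with 7.16 and 6.66, both below the median. Add1, which other tissues make, differed by -1.54 (SE 0.0808), with 10.02 and 9.82, and Dmtn by -1.07 (SE 0.0610), with 7.75 and 7.78. The DC values of Add2 and Epb42 lie below the array median, so the size of their folds is uncertain. Tmod1 (7.85 and 8.17) and Slc4a1 (9.41 and 8.47) did not pass the test, though Slc4a1 was lower in DC without the WT DC array (-0.77). Tmod1 was called lower in DC with its other probe set and with the mean of probe sets. Leaving out the KO DC array also moved it lower. DC shifted as a whole: the median of all genes was -0.54, and -0.086 after quantile normalization, which moved higher calls from 30.9% to 46.4% of all calls. All 6 of these calls held under both scalings.

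Against Pre MegE, the stage before most of the rise, 5 of the 8 genes were lower in DC, where 65.7% of all genes were. The difference was -2.15 for Ank1 (SE 0.114), -1.87 for Add2, -1.45 for Add1, -0.91 for Sptb and -0.22 for Tmod1, all past the test (limma adjusted p = 0.0341 for Tmod1). Tmod1 turned to 0.13 higher with quantile normalization (adjusted p = 0.286). Its call was lost with centring, with array weights and without the WT DC, the WT Pre MegE or the Het CFU-E array. The other Tmod1 probe set had 7.09 and 6.81 in WT and KO DC. At Pre MegE that probe set had 7.80, 7.95 and 7.89 in WT, Het and KO. Epb42 and Dmtn differed by -0.25 and 0.10, neither past the test, although Epb42 passed without the WT DC or the Het Pre CFU-E array and Dmtn was called higher with centring and with quantile normalization (0.29). Slc4a1 was 0.43 higher in DC (SE 0.206, adjusted p = 0.0680). It was called higher with centring, with quantile normalization (1.04), without the KO DC or the KO Pre MegE array and without the genotype block. Quantile normalization moved higher calls among all genes from 25.5% to 44.9% of the calls. The median of all genes was -0.59, and -0.10 after quantile normalization.

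Slc4a1 had the widest gap of the 8 genes between the WT and KO DC arrays. In WT DC it was 9.41, above every progenitor array, and KO DC had 8.47, 1.92-fold less. In progenitors KO minus WT was 0.00 in Pre MegE, 0.06 in Pre CFU-E and 0.17 in CFU-E cells. The Pre MegE difference comes from exactly equal deposited values on the 2 arrays, which RMA can give. The difference of the 2 effects was -1.02 (SE 0.155, limma adjusted p = 0.00929), 1 of 8 genes against 4.57% of all genes. DC had 1 array per genotype, so their KO effect has no replicate of its own, and the test takes its spread from the progenitor arrays. The comparison was also added after the data were seen, so that it describes these arrays and does not establish a difference between the cell types. Over the alternatives run its adjusted p reached 0.0379, and quantile normalization moved higher calls among all genes from 34.1% to 45.2% of the calls. Of the other genes Epb42 had a KO minus WT of -0.50 in DC and Tmod1 of 0.32, and their differences of effect did not pass (adjusted p = 0.118 and 0.161). Both passed with quantile normalization and with array weights, and Epb42 also without the Het Pre CFU-E array. The other Tmod1 probe set went the opposite way, with 7.09 in WT and 6.81 in KO DC. Over the alternatives run, the Tmod1 difference of effect ranged from -0.40 to 0.47, so its sign is not settled. Between the 2 DC arrays 0.186% of all genes differed by at least 1, 5% lay below -0.357 and 5% above 0.348.

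Other genes moved with Slc4a1 between the DC arrays. Alas2 was 8.81 in WT and 7.91 in KO, Car1 8.02 and 7.42 and Rhag 6.07 and 5.23. Gata1 was 7.0 and 7.34, Epor 7.70 and 7.72, Tfrc 9.65 and 9.95 and Klf1 7.16 and 6.83. Thus 4 of the 7 measured erythroid markers were lower in KO and 3 higher, and the mean of the list was 7.77 in WT and 7.49 in KO. Rhag, Klf1 and Gata1 lay below the median on both DC arrays. Among macrophage markers, Cd5l was 8.0 in WT and 6.92 in KO, C1qb 10.998 and 10.22, C1qa 9.95 and 9.40 and Vcam1 10.67 and 10.05, while Spic was 9.89 and 10.09 and Adgre1 12.33 and 12.39. The mean of the 6 macrophage markers was 10.31 in WT and 9.85 in KO. The part of such cells in the Slc4a1 difference was not tested.

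**Figure D4:**
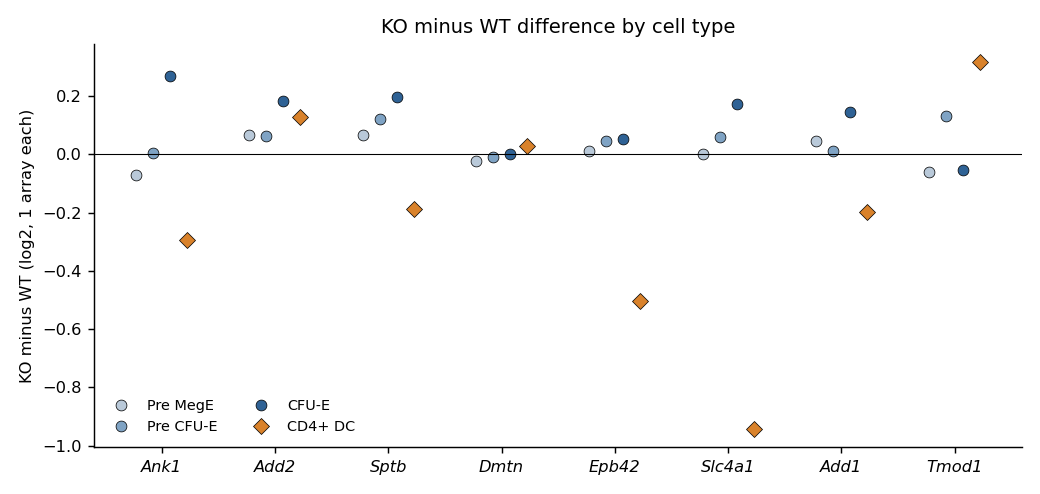
KO minus WT log2 difference (y axis) of each of the 8 genes (x axis), 1 point per cell type and 1 array on each side. Progenitor points lie between -0.07 and 0.27, and the DC point of Slc4a1 lies at -0.94.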

How the data were processed

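RNA of 11 sorted mouse samples was labelled with the Ambion/Affymetrix WT Expression Kit, per the labels' protocols. The deposited values are linear intensities per probe set, summarised by the authors with RMA per the submitters' processing notes; no version or filter is given in the sources used here. The log2 of each intensity was taken with no further scaling. Of 29674 probe sets, 21780 had 1 symbol, 1618 several and 6276 were not listed, and 996 of 19933 genes had more than 1 probe set. Array medians were 195.7 to 218.4, upper quartiles 967.6 to 1009 in progenitors and 604.8 and 641.4 in DC.

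Genes at or above the array median on at least 2 arrays of a fit were tested (10701 in progenitors, 11560 in all) with limma 3.58.1 in R 4.3.3, two-sided, with Benjamini-Hochberg adjustment over all genes and a call at an adjusted p under 0.05. Stage and genotype entered 1 additive fit over 9 progenitor arrays (4 residual degrees of freedom). The trend of the KO effect left 3, and the fit over 11 arrays 5. The median residual SD was 0.0705. RMA can give arrays equal values: 12.5% of tested genes had the same value on at least 2 of the 3 Pre CFU-E arrays, 2.6% at Pre MegE and 3.4% at CFU-E, among the 8 genes only Slc4a1 in WT and KO Pre MegE. The fit was tested on simulated data.

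Members and lists were chosen with earlier results of these data known. From each related list the 3 largest rises and 3 largest falls among genes called from Pre MegE to CFU-E were named, and for the 3 members with the largest rise the 5 genes most like each. Alternatives were centring, quantile normalization, other filters, the mean of probe sets, a variance trend, array weights, no block and leaving out each array. The second Tmod1 probe set and the test of the KO effect in DC against progenitors were added after seeing the data. Promoters come from RefSeq (GRCm38.p6).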

Additional observations from a re-analysis of the deposited data

Results flagged for a closer look

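Slc4a1 had a KO minus WT difference in DC that lay -1.02 on the log2 scale from that in progenitors (SE 0.155, limma adjusted p = 0.00929). DC had 1 array per genotype, the spread was taken from the progenitor arrays, and the comparison was added after seeing the data, so the p describes these arrays and does not establish that the cell types differ. In the same DC arrays Alas2 was 8.81 in WT and 7.91 in KO and the macrophage gene C1qa 9.95 and 9.40. The other measured erythroid and macrophage markers went either way. Car1, Rhag, Klf1, C1qb, Vcam1 and Cd5l were lower in KO, and Gata1, Epor, Tfrc, Spic and Adgre1 were higher. The part of erythroid cells or macrophages in the result was not tested.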

How the results depend on the processing

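The order of onset and every called step of Ank1, Sptb, Epb42 and Dmtn kept direction and call under all alternatives run. The small first step of Dmtn held only narrowly, with a limma adjusted p of up to 0.0498. Genes called lower in the first step went from 1 to 2 with the second Tmod1 probe set, the mean of probe sets or no block, and ranged from 1 to 2 with 1 array left out. Over both steps 1 was lower, in place of 0, with the second Tmod1 probe set or the mean of probe sets. Genes with a smaller second step ranged from 1 to 2 with 1 array left out. Genes higher in DC than at Pre MegE went from 0 to 2 with centring or quantile normalization, to 1 with no block, and ranged from 0 to 1 with 1 array left out. Tmod1 reversed there with quantile normalization (0.13). For the KO effect in DC against progenitors, genes called higher went from 0 to 1, and those called lower from 1 to 2 with quantile normalization and 5 with array weights (range 1 to 2 with 1 array left out). The cause of these moves was not tested, other than the probe set read for Tmod1. Among all genes, higher calls in the second step went from 2004 to 3416 with array weights and 1322 without the WT Pre CFU-E array. Without that array the signed difference of second minus first step was called higher for 953 genes and lower for 1588, against 1565 and 2575. Without the KO Pre CFU-E array it was called lower for 1667. Lower KO against WT calls ranged from 1 to 24 with 1 array left out, and Het against WT calls went to 13 higher and 31 lower with array weights. The KO trend, with 0 calls, had 186 higher and 393 lower with array weights, whose estimation stopped before it converged. Higher calls in DC with no filter were 6175 against CFU-E and 6463 against Pre MegE, where quantile normalization gave 4402. Differences of KO effect had 513 higher and 622 lower calls with quantile normalization and 1235 and 2418 with array weights. No fit without the block was run for the KO trend or for the KO effect in DC, and the latter cannot be had without a DC array. Values below the array median limit what can be read of Epb42 before CFU-E, of Dmtn at Pre MegE and of Add2 and Epb42 in DC.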
